A study of Mus musculus with 19 samples.

Results

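The genes described here are 10 that mark neutrophils and their activation: S100a8 and S100a9, whose proteins pair to form calprotectin, and Il1r2, Il1b, Cxcr2, Csf3r, Retnlg, Lcn2, Slfn4 and Clec4d. They were taken as a named list that was chosen with earlier results of these data known. Each gene was read through the probe set that carries its symbol alone. Where a gene had several such probe sets, the one with the highest mean over the arrays would stand for it. A probe set is the group of short probes on the array that reads 1 transcript. Of the 10 genes, 9 had such a probe set, 1 each, out of 12393 genes measured in this way. Retnlg, which encodes the secreted protein resistin-like gamma, had no listed probe set and was not analysed here, and a probe set shared by Slfn4 and Slfn3 was not used.

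The muscle was the tibialis anterior, the large dorsiflexor of the mouse shin, on the 129/SVE background. It came from 4 groups on 19 arrays: 5 arrays of adult wild-type mice aged 7 to 9 weeks (adult WT), 5 of wild-type mice aged 12 to 14 months (aged WT), 5 of adult desmin knockouts of the same 7 to 9 weeks (adult KO) and 4 of aged desmin knockouts of 12 to 14 months (aged KO). Desmin is the intermediate filament that ties muscle myofibrils together. Every muscle had undergone 50 eccentric contractions (stretch of a muscle while it is active) 12 h before its RNA was taken, so no value here comes from a muscle at rest. The labels give the knockouts as Des(-/-) and name no tissue-specific driver. The labels do not say whether arrays of a group came from separate mice, so p-values measure the spread between arrays. The comparisons ask how levels 12 h after lengthening contractions differ with age and with loss of desmin. A difference in the response cannot be told apart from one already present before the contractions.

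Neutrophils are the first white blood cells to enter injured tissue. They are called by chemokines that bind CXCR2, they depend on granulocyte colony-stimulating factor for their production and survival, and they carry granules of antimicrobial proteins together with large amounts of calprotectin in the cytosol. In skeletal muscle they enter within hours of damaging contractions and are followed by macrophages.

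S100a8 and S100a9 lie next to each other on mouse chromosome 3, with no other protein-coding gene between them in the RefSeq annotation. Their start regions, and that of Lcn2 on chromosome 2, are shown. S100a8 and S100a9 followed each other most closely over the arrays. The mean intensities of Lcn2, Slfn4 and Clec4d, unlike theirs, were highest in aged WT. By correlation with S100a8, Slfn4 (0.483) and Cxcr2 (0.219) stood further off than Lcn2 (0.653). The windows run from 250 bases before to 50 after the annotated start, 5′ to 3′ on the gene's strand, in RefSeq's GRCm38.p6. They are chr3:90668821-90669120 on the plus strand for S100a8, chr3:90695672-90695971 on the minus strand for S100a9 and chr2:32387690-32387989 on the minus strand for Lcn2. Capitals mark matches, on either strand, to TTNNGNAA, a shortened form of the motif bound by C/EBP factors, which drive granulocyte genes.
S100a8: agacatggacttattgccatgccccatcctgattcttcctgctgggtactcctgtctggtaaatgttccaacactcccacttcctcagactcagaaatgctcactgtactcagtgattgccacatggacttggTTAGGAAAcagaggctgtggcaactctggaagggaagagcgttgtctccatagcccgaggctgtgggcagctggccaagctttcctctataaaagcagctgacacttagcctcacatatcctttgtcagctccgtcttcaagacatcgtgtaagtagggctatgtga
S100a9: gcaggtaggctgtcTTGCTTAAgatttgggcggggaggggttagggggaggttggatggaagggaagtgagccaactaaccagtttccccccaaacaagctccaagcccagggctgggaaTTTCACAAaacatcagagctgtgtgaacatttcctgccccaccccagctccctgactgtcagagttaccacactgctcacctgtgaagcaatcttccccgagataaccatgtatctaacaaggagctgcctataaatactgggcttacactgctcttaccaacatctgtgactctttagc
Lcn2: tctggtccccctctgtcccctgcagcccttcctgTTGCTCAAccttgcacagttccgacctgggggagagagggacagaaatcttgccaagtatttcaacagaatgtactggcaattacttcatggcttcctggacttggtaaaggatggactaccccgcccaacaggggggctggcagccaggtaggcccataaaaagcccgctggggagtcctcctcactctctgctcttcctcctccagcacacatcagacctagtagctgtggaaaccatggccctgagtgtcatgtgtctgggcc
Counting from the annotated start as 0, the match in S100a8 lay at -117 to -110, those in S100a9 at -236 to -229 and -130 to -123, and that in Lcn2 at -216 to -209. All 10 genes had a window in the table, and 7 of the 10 held TTNNGNAA, against 40.7% of all 32851 windows of that length. GAGGAA, the core bound by PU.1, was in 5 of 10 windows against 28.3% of all, and TATAAA was in 4 of 10 against 13.6%, again with both strands searched. The remaining motif searched, a form of that bound by the transcription factor NF-kB, was in 0 of 10 windows against 1.63% of all. No match of one motif overlapped a match of another. These counts describe letters in the windows and say nothing of what binds there.

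The arrays fell into 2 sets that cut across the groups. Control transcripts with poly-A tails, which are added to a sample before labelling, gave 1184 to 3103 on 8 arrays and 1 to 17.4 on the other 11. The 8 were all 5 aged WT arrays and adult KO replicates 3, 4 and 5. The probe set for the middle of 18S ribosomal RNA gave 5835 to 19660 on these 8 arrays and 29.1 to 181 on the 11, and the 3′ to 5′ ratio of Actb was 1.25 to 1.36 on the 8 and 0.446 to 1.28 on the 11. The part of the 18S signal and of the Actb ratio in the results was not tested apart from the split, for which later fits hold a term. Aged WT against adult WT and aged KO against aged WT therefore lie wholly across this split, where the group and this split cannot be told apart, while all aged KO and all adult WT arrays lack the controls. On aged KO replicates 2 and 3 the Gapdh probe sets gave a 3′ to 5′ ratio of 8.61 and 5.01, against 0.766 to 0.968 on the other 17 arrays. Desmin's own probe set read 311 to 879 in adult KO against 13700 to 22310 in adult WT, and 72.8 to 636.5 in aged KO against 10750 to 12740 in aged WT, with an exact two-sided permutation p of 0.00794 and 0.0159, the smallest that these group sizes allow. The labels and the RNA thus went together on all 19 arrays.

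Both calprotectin genes read higher on aged than on adult arrays in both genotypes, in WT wholly across the control split. Their values are deposited MAS5 intensities, whose trimmed mean was 500.2 to 500.3 on every array. S100a8, the smaller subunit, read 127, 449, 490, 234 and 282 on adult WT replicates 1 to 5 and 4354, 1156, 1385, 4516 and 898 on aged WT replicates 1 to 5. It read 436, 619, 1530, 932 and 181 in adult KO and 4516, 2979, 5008 and 2308 in aged KO. Every aged array lay above every adult array of its own genotype. Aged WT had 2 high arrays, replicates 1 and 4, with the remaining 3 at the level of the upper adult KO arrays. All 4 aged KO arrays were high, the 2 with a raised Gapdh ratio included. Differences were fitted over all genes with limma on log2 intensities; called genes are those under 0.05 after Benjamini-Hochberg adjustment over all 12393. S100a8 was 7.19-fold higher in aged than in adult WT (log2 2.85, SE 0.56, adjusted p = 0.00241, limma). The same contrast in the knockouts was 5.87-fold (log2 2.55, SE 0.60, adjusted p = 0.0297, limma). The KO call was lost on leaving out any 1 of 3 arrays (adjusted p up to 0.0929, limma). Neither call of S100a8 held with the term for the control split.

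S100a9, the partner subunit, read 205, 618, 874, 236 and 174 in adult WT and 7200, 1591, 2449, 6443 and 1260 in aged WT. In KO muscle it read 549, 1023, 2303, 1362 and 177 in adults and 6403, 3913, 6399 and 3586 in aged animals. Again no aged array fell to the level of an adult array of its genotype, and replicates 1 and 4 were the high arrays of aged WT. S100a9 was 9.18-fold higher in aged WT than in adult WT (log2 3.20, SE 0.66, adjusted p = 0.00312, limma). In aged KO it was 6.18-fold higher than in adult KO (log2 2.63, SE 0.70, adjusted p = 0.0498, limma). The KO call was lost on leaving out any 1 of 8 arrays (adjusted p up to 0.131, limma). Neither call of S100a9 held with the term for the control split. On log2 values S100a8 and S100a9 had a Pearson correlation of 0.978 over the 11 arrays without poly-A controls and 0.995 over the 8 arrays with them, given as a description, since the arrays of a group share their age and genotype. The mean intensity of S100a8 went up in the order adult WT (316 ± 151, SD, n = 5), adult KO (740 ± 520, n = 5), aged WT (2462 ± 1810, n = 5) and aged KO (3703 ± 1269, n = 4), and that of S100a9 kept the same order; the 2 adult groups, and the 2 aged groups, did not differ beyond their spread. Whole muscle was measured, so a change in the number of cells of a type and a change in RNA per cell cannot be told apart for these or any other genes below.

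**Figure D1:**
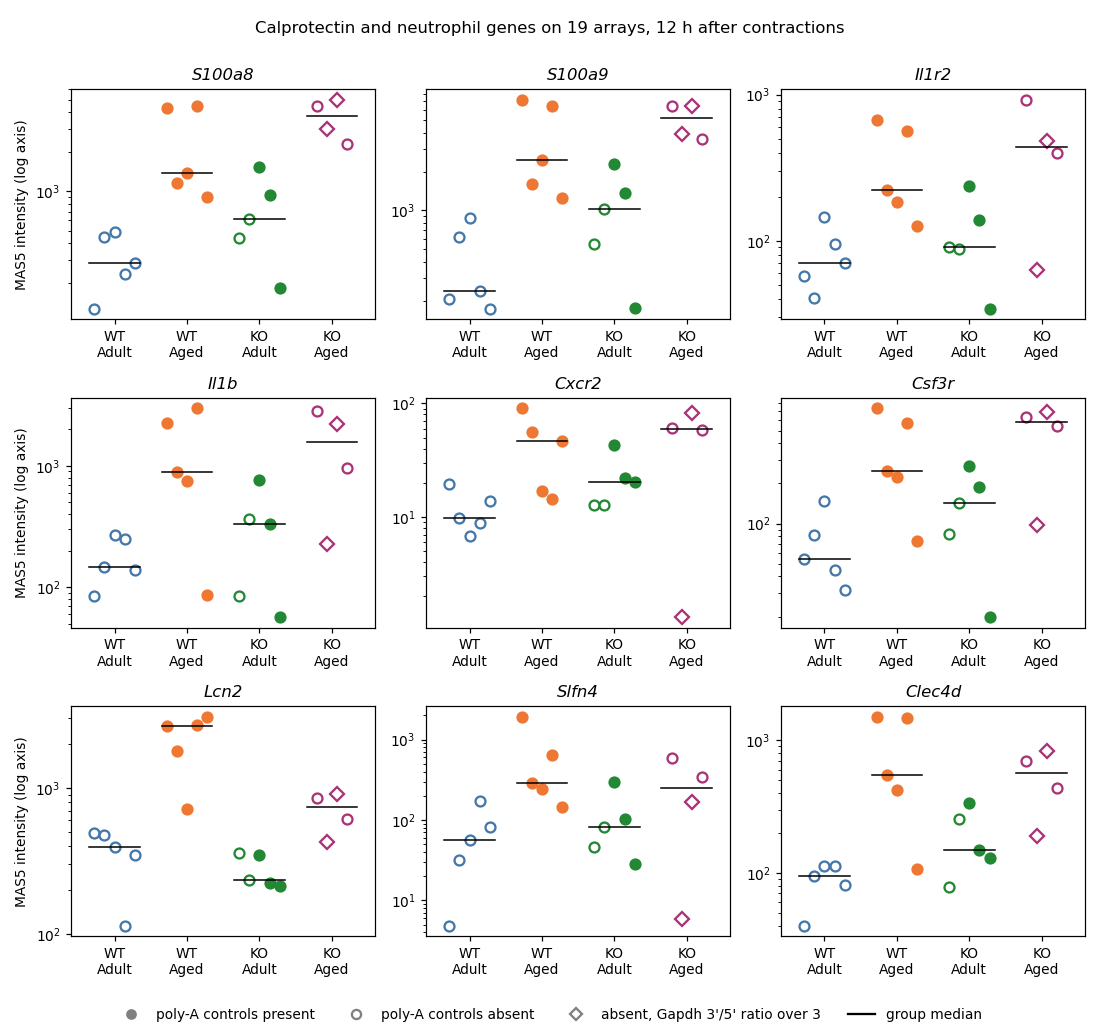
MAS5 intensity (log axis, a separate scale for each gene) of the 9 measured genes on every array, by group. Each symbol is 1 array, filled where poly-A controls were present, with a diamond where the Gapdh 3′ to 5′ ratio was over 3, and the line is the group median. S100a8, S100a9 and Lcn2 separate aged from adult arrays within each genotype. By mean intensity Lcn2, Slfn4 and Clec4d are highest in aged WT.

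Csf3r encodes the receptor for granulocyte colony-stimulating factor. It read 54.4, 82.2, 147, 44.4 and 31.9 in adult WT and 735, 248, 224, 569 and 73.5 in aged WT. Its KO values were 83.4, 143, 271, 188 and 19.8 in adults and 631, 98.03, 694 and 537 in aged animals. Aged WT replicate 5 and aged KO replicate 2 sat within the adult range, so the ages overlapped in both genotypes. The log2 difference between ages was 2.26 in WT (SE 0.67, adjusted p = 0.0230, limma) and 1.70 in KO (SE 0.71, adjusted p = 0.201, limma).

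Cxcr2, the chemokine receptor that brings neutrophils into tissue, was the 1 gene of the 9 that did not pass a filter at the upper 60% of genes by mean. It read 19.5, 9.85, 6.86, 8.85 and 13.8 in adult WT and 90.8, 55.7, 17.0, 14.5 and 46.4 in aged WT. In KO muscle it read 12.9, 12.8, 43.5, 22.2 and 20.3 in adults and 60.2, 1.31, 83.1 and 58.6 in aged animals. Of the aged KO arrays 3 were above every adult KO array, and the array with the highest Gapdh ratio, replicate 2, had the lowest Cxcr2 signal of all 19. Its log2 difference between ages was 1.73 in WT (SE 0.60, adjusted p = 0.0454, limma) and 0.46 in KO (SE 0.63, adjusted p = 0.757, limma). The KO difference was 1.11 without the 2 arrays of raised Gapdh ratio (SE 0.55, adjusted p = 0.396, limma). The WT call was lost after median centring (adjusted p = 0.0578), without normalization (adjusted p = 0.102) and with a pseudocount of 1 (adjusted p = 0.0644), and on leaving out any 1 of 7 of the 10 arrays (adjusted p up to 0.112, limma).

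Il1r2 encodes the decoy receptor that binds interleukin 1 without signalling. It read 56.9, 40.3, 146, 94.7 and 70.7 in adult WT and 664, 221, 185, 561 and 127 in aged WT. Its KO values were 90.8, 87.6, 236, 138 and 34.3 in adults and 922, 63.5, 478 and 395 in aged animals. The highest value of all was on aged KO replicate 1, while aged KO replicate 2 lay among the adults. The log2 difference between ages was 2.06 in WT (SE 0.59, adjusted p = 0.0194, limma) and 1.58 in KO (SE 0.63, adjusted p = 0.178, limma).

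Il1b, the inflammatory cytokine that Il1r2 captures, varied widely among the aged arrays. It read 84.5, 147, 268, 251 and 140 in adult WT and 2271, 897, 755, 2987 and 85.7 in aged WT. In KO muscle it read 84.7, 367, 763, 333 and 56.6 in adults and 2859, 226, 2218 and 956 in aged animals. Of the 5 aged WT arrays 4 were above every adult WT array, and replicate 5 was at the bottom of the adult WT range. The log2 difference between ages was 2.46 in WT (SE 0.86, adjusted p = 0.0479, limma) and 2.23 in KO (SE 0.92, adjusted p = 0.192, limma). The call in WT was lost on leaving out any 1 of 9 of the 10 arrays, with an adjusted p of up to 0.119 in limma's test, and held only without aged WT replicate 5. It was also lost without normalization between arrays (log2 2.32, adjusted p = 0.0659, limma) and with a pseudocount of 1 (log2 2.48, adjusted p = 0.0538, limma).

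Lcn2 took a different course from S100a8 and S100a9. It encodes lipocalin 2, a granule and secreted protein that withholds iron from bacteria and that many cell types besides neutrophils can make. It read 491, 477, 396, 114 and 350 in adult WT and 2671, 1800, 723, 2683 and 3062 in aged WT. Replicate 5 of aged WT, within the adult WT range for Il1b, Csf3r, Il1r2, Slfn4 and Clec4d, was the highest array of all for Lcn2. The KO values were 360, 234, 348, 224 and 215 in adults and 858, 430, 911 and 616 in aged animals. Aged arrays lay above adult arrays in each genotype, but 4 of the 5 aged WT arrays also lay above all 4 aged KO arrays. Lcn2 was 6.23-fold higher in aged than adult WT (log2 2.64, SE 0.42, adjusted p = 0.000567, limma), and the difference between aged and adult KO was 2.31-fold (log2 1.20, SE 0.45, adjusted p = 0.148, limma). Over the arrays without and with controls its correlation with S100a8 was 0.659 and 0.653.

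Slfn4 belongs to the schlafen family and is induced in myeloid cells. It read 4.82, 32.1, 56.7, 170 and 82.3 in adult WT and 1920, 286, 244, 651 and 146 in aged WT. The KO values were 45.8, 81.6, 294, 103 and 28.7 in adults and 583, 5.92, 168 and 339 in aged animals. Aged WT replicate 1 stood far above every other array, and aged KO replicate 2 was next to the lowest of the 19. The log2 difference between ages was 3.25 in WT (SE 0.96, adjusted p = 0.0227, limma) and 0.53 in KO (SE 1.02, adjusted p = 0.841, limma). Without the 2 arrays of raised Gapdh ratio the KO value was 2.15 (SE 1.01, adjusted p = 0.363, limma).

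Clec4d is a C-type lectin receptor of myeloid cells that pairs with the product of its chromosomal neighbour, Clec4e. It read 39.9, 95.3, 113, 112 and 81.5 in adult WT and 1497, 542, 418, 1476 and 106 in aged WT. In KO muscle it read 77.8, 254, 334, 149 and 129 in adults and 697, 191, 827 and 437 in aged animals. Replicate 5 of aged WT was again at the adult level, and the other 4 aged WT arrays were above every adult array of either genotype. Its log2 difference between ages was 2.85 in WT (SE 0.59, adjusted p = 0.00307, limma) and 1.36 in KO (SE 0.62, adjusted p = 0.244, limma). The probe sets of S100a8 and Clec4d carry the suffix for probes that can match more than 1 transcript, so related transcripts may add to both.

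The order of the arrays was then compared over the 9 genes. Aged WT replicate 1 had a median rank of 1 of 19 and aged WT replicate 4 a median rank of 2, followed by aged KO replicates 1, 3 and 4 at 3, 4 and 5. Aged WT replicates 2 and 3 ranked 6 and 8, on either side of adult KO replicate 3 at 7. All 5 adult WT arrays had median ranks of 13 to 17, and adult KO replicate 5 had the lowest, 18. The arrays with scattered ranks were aged WT replicate 5, from 1 for Lcn2 to 16 for Il1b, and aged KO replicate 2, from 5 for S100a8 and S100a9 to 19 for Cxcr2. Replicates 1 and 4 were the 2 highest of the 5 aged WT arrays for 7 of the 9 genes, Cxcr2 and Lcn2 being the others.

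**Figure D2:**
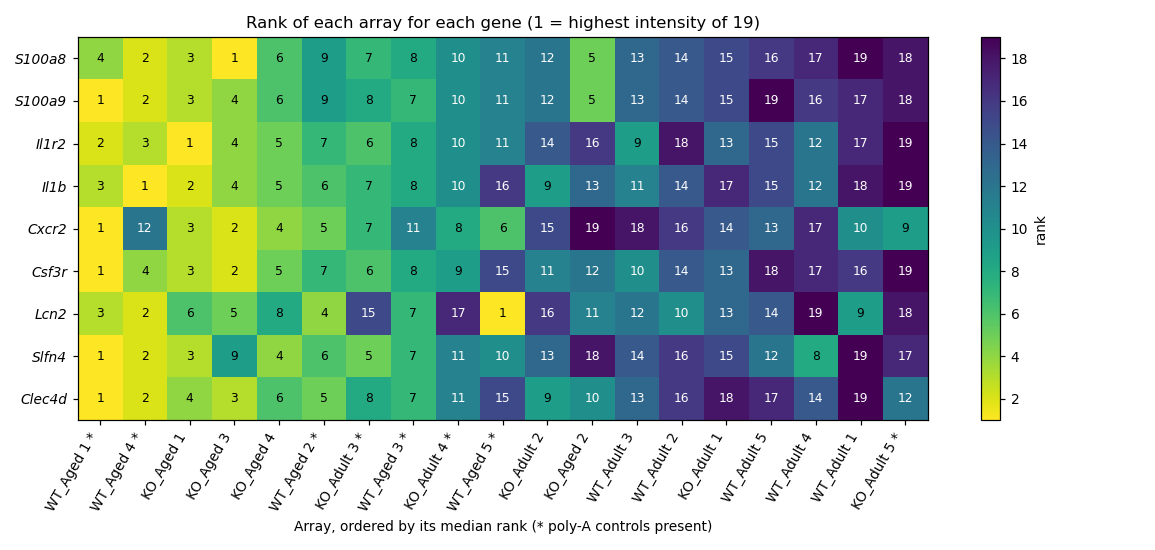
Rank of each array (1 is the highest intensity of 19) for each of the 9 genes, with arrays ordered from left to right by their median rank over the genes. The asterisk marks arrays with poly-A controls; aged WT replicates 1 and 4 lead the order, adult WT arrays have median ranks of 13 to 17, and Lcn2 departs from the order on aged WT replicate 5.

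Between aged and adult WT, all 9 measured genes were higher at an adjusted p under 0.05, in a comparison where 10.7% of the 12393 genes were called higher and 22.8% were called in either direction. The 9 were chosen with earlier results of these data known, so their count is not an independent test. Their median log2 difference was 2.64, against -0.01 over all genes. Recorded intensities did not overlap for 3 of the 9, S100a8, S100a9 and Lcn2, where 7% of all genes were without overlap in that direction. Of all calls 46.9% were higher, a share that was 57.4% after median centring and 33.7% without normalization, and the median of all genes moved to -0.17 in the latter; members called were 8 and 7. Without aged WT replicate 1, only S100a8, S100a9, Lcn2 and Clec4d passed; with any other array of these groups left out, 6 to 8 genes did. The comparison crosses the poly-A control split. With a term for that split, estimated through the adult KO arrays, 0 of the 9 passed, in a fit where 0.00807% of all genes were called higher; 1285 genes had an unadjusted p under 0.05 there. The values with that term were 2.63 for S100a8 (adjusted p = 0.404, limma), 3.13 for S100a9 (adjusted p = 0.402, limma) and 2.87 for Lcn2 (adjusted p = 0.251, limma), and the smallest was 0.49 for Cxcr2 (adjusted p = 0.885, limma).

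Between aged and adult KO, 2 of 9 genes were higher, S100a8 and S100a9, where 1.41% of all genes were called higher and 2.98% in either direction. All 9 differences were above 0, from 0.46 for Cxcr2 to 2.63 for S100a9, with a median of 1.58 against 0.03 over all genes. Intensities were without overlap for S100a8, S100a9 and Lcn2, against 5.45% of all genes. Of all calls 47.4% were higher, against 40.2% after median centring and 71.8% without normalization, where the median of all genes was 0.16. Both calls rested on few arrays: 0 of 9 genes passed without adult KO replicate 5, aged KO replicate 1 or aged KO replicate 3, and 1 passed without adult KO replicate 1, 2 or 4 or aged KO replicate 2 or 4. None passed with the term for the control split, where 0.823% of all genes were called higher (S100a8 2.69, adjusted p = 0.0778; S100a9 2.67, adjusted p = 0.125; limma), or without the 2 arrays of raised Gapdh ratio, where 0.234% were (S100a8 2.46, adjusted p = 0.163; S100a9 2.66, adjusted p = 0.196; limma).

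**Figure D3:**
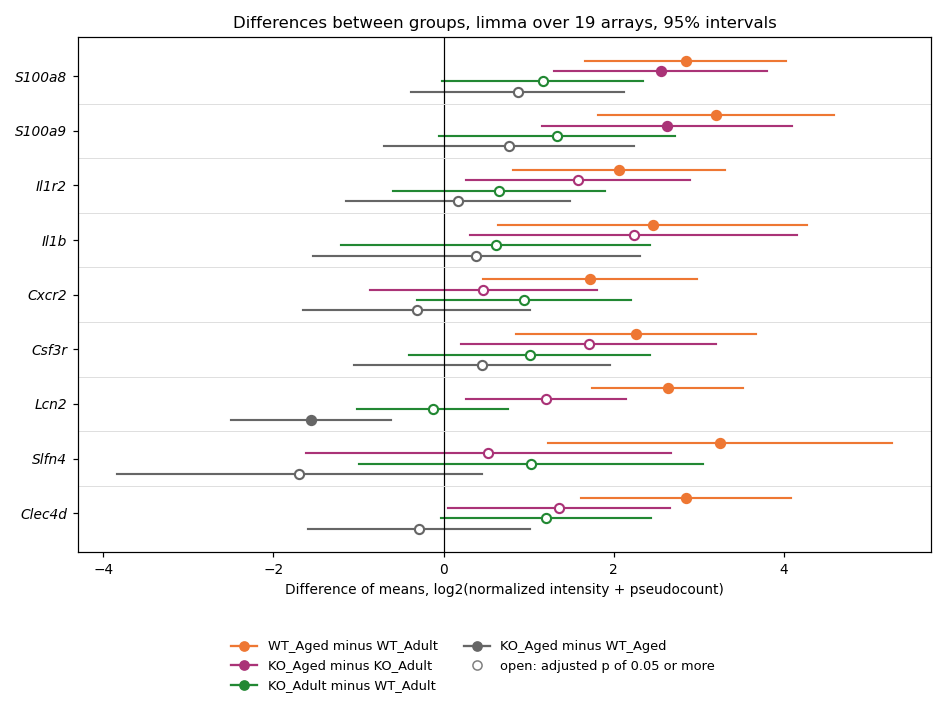
Difference of group means in log2(normalized intensity + pseudocount) with 95% intervals for the 9 genes in 4 comparisons, from the limma fit over 19 arrays. Filled points have an adjusted p under 0.05; all 9 are filled for aged against adult WT, S100a8 and S100a9 for aged against adult KO, and Lcn2, below 0, for aged KO against aged WT.

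Comparisons that do not cross the control split gave a partial view of the same levels. Aged KO and adult WT, which differ in both age and genotype, share the absence of controls, and a fit with a mean for each group and control state called 6 of the 9 genes higher in aged KO, where 8.59% of all genes were called higher and 16.9% in either direction. S100a8 was 13.2-fold higher (log2 3.72, SE 0.61, adjusted p = 0.000787, limma) and S100a9 15.6-fold higher (log2 3.97, SE 0.72, adjusted p = 0.00173, limma). Clec4d (log2 2.57, adjusted p = 0.0115, limma), Csf3r (2.72, adjusted p = 0.0187), Il1r2 (2.23, adjusted p = 0.0256) and Il1b (2.85, adjusted p = 0.0477) passed too. The Il1b call was lost on leaving out any 1 of 8 of the 9 arrays (adjusted p up to 0.128, limma), after median centring (0.0502) and without normalization (0.0696). The Il1r2 call was lost on leaving out any 1 of 5 arrays (adjusted p up to 0.0800, limma) and without normalization (0.0511), where 4 members passed. Lcn2 (1.08, adjusted p = 0.121), Cxcr2 (1.41, adjusted p = 0.131) and Slfn4 (1.56, adjusted p = 0.350) had positive values that did not pass. Intensities were without overlap for S100a8, S100a9 and Clec4d, against 6.86% of all genes. Of all calls 51% were higher, against 63.4% after median centring, where the median of all genes was 0.13 and 5 members passed. Without aged KO replicate 3 only S100a8, S100a9 and Clec4d passed; without aged KO replicate 2 Cxcr2 and Slfn4 passed as well, making 8. Without replicates 2 and 3 together 6 of 9 passed, Cxcr2 (2.05, adjusted p = 0.0171) taking the place of Il1b (3.41, adjusted p = 0.0696).

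Among arrays without controls, aged KO against the 2 adult KO arrays gave 0 of 9 calls, where 0.823% of all genes were called higher and 2506 had an unadjusted p under 0.05 in limma's test; these are the values that the term for the split gives. The same 2 adult KO arrays against adult WT gave 0 of 9 calls, where 1.64% of all genes were called in either direction and 1992 had an unadjusted p under 0.05; S100a8 was at 1.03 there (adjusted p = 0.546, limma). Aged WT and the 3 adult KO arrays with controls are a further such pair. There 1 of 9 genes passed, Lcn2, which was 7.25-fold higher in aged WT (log2 2.86, SE 0.50, adjusted p = 0.00407, limma), where 2.03% of all genes were called higher. S100a8 (1.59, SE 0.67, adjusted p = 0.221) and S100a9 (1.83, SE 0.79, adjusted p = 0.233) did not pass, and the other values ran from 0.29 for Cxcr2 to 1.95 for Slfn4. Lcn2 stayed called with each of the 8 arrays left out in turn. Adult KO is the one group with arrays in both sets. Its 3 arrays with controls against its 2 without gave 0 of 9 calls, where 11.7% of all genes were called in either direction and 3506 had an unadjusted p under 0.05. The values were 0.22 for S100a8 (95% interval -1.54 to 1.99), 0.07 for S100a9 (-2.004 to 2.15) and -0.23 for Lcn2 (-1.55 to 1.09), and the largest was 1.24 for Cxcr2 (-0.53 to 3.01).

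**Figure D4:**
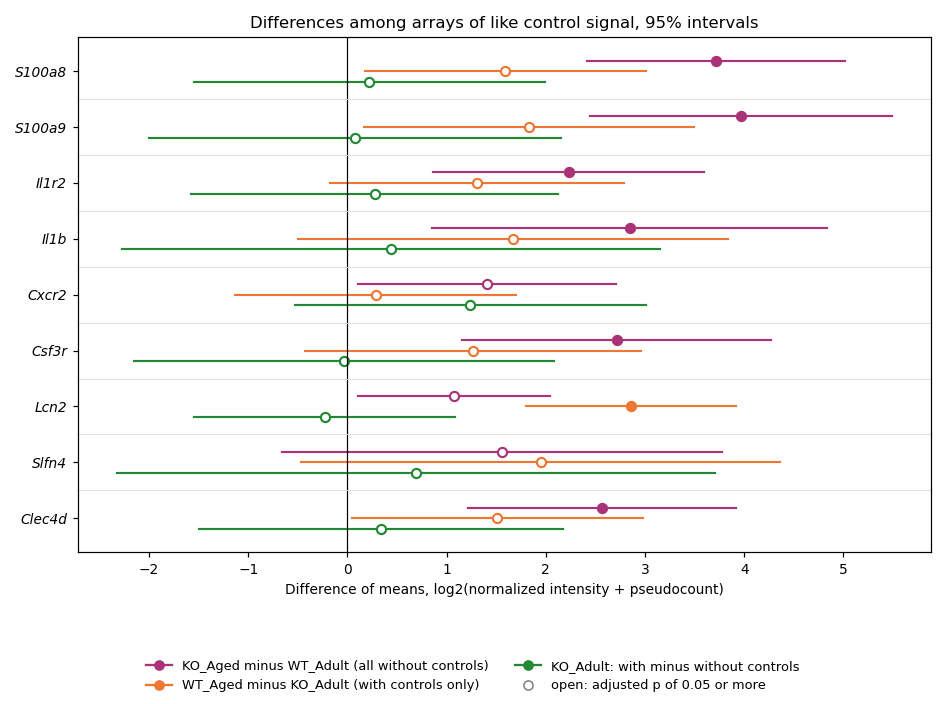
Log2 differences with 95% intervals for the 9 genes between aged KO and adult WT arrays, all without poly-A controls, between aged WT and adult KO arrays with controls, and between adult KO arrays with and without controls. Filled points have an adjusted p under 0.05: 6 genes in the first comparison, Lcn2 alone in the second and none in the third.

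The effect of desmin loss was compared within each age. In adults 0 of 9 genes passed between KO and WT in limma's test, where 7.79% of all genes were called in either direction and 2857 had an unadjusted p under 0.05, and no gene's intensities were without overlap, against 2.28% of all genes higher and 6% lower. The values were positive for 8 of the 9 in each of 3 scalings, with a median of 1.01 against 0.03 over all genes. S100a8 differed by 1.16 (95% interval -0.02 to 2.35, adjusted p = 0.224, limma), S100a9 by 1.34 (-0.05 to 2.73, adjusted p = 0.234) and Clec4d by 1.21 (-0.03 to 2.44, adjusted p = 0.226). The S100a8 interval ends at a 5.09-fold difference, so a sizeable one is within its reach. Lcn2 stood at -0.13 (-1.02 to 0.76, adjusted p = 0.892). Of all calls 42.1% were higher, against 64% after median centring, where the median of all genes was 0.12, and 25.5% without normalization, where it was -0.13.

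In aged muscle 1 of 9 genes passed between KO and WT. Lcn2 was 2.95-fold lower in aged KO (log2 -1.56, SE 0.45, adjusted p = 0.0224, limma), where 7.63% of all genes were called lower and 17.7% in either direction. No member's intensities were without overlap, against 15.2% of all genes higher and 8.06% lower. Slfn4 had a difference as large, -1.70, with more spread (SE 1.02, adjusted p = 0.268); it was -0.49 without aged KO replicate 2 (adjusted p = 0.764) and -0.077 without the 2 arrays of raised Gapdh ratio (adjusted p = 0.977). S100a8 differed by 0.87 (95% interval -0.38 to 2.13, adjusted p = 0.334) and S100a9 by 0.77 (-0.70 to 2.24, adjusted p = 0.482), and the median over the 9 was 0.17 against 0.06 over all genes. That median was 0.78 against -0.0056 over all genes without the 2 arrays of raised Gapdh ratio, and 0.44 against 0.0054 with the term for the control split. The Lcn2 call was lost without the 2 arrays of raised Gapdh ratio (-1.51, adjusted p = 0.123, with 4.34% of all genes lower), with the term for the control split (-1.79, adjusted p = 0.237, with 0.516% lower), and without aged KO replicate 2 or 4 or aged WT replicate 1, 4 or 5, where it ranged from -1.50 to -1.38. Of all calls 57% were higher, against 67% without normalization, where the median of all genes was 0.17. In order of mean intensity Lcn2 ran from adult KO (276 ± 71.6, SD, n = 5) and adult WT (366 ± 152, n = 5) to aged KO (704 ± 223, n = 4) and aged WT (2188 ± 941, n = 5). Of these neighbours only aged KO and aged WT differed in a test.

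The change with age was not shown to depend on genotype for any of the 9 genes with all arrays in the fit. In the interaction, the aged minus adult difference in KO less that in WT, 0 of 9 genes passed in limma's test, where 14.4% of all genes did and 3746 had an unadjusted p under 0.05. Lcn2 gave -1.43 (95% interval -2.73 to -0.14, adjusted p = 0.125, limma) and passed only without aged WT replicate 3 (-1.79, adjusted p = 0.0396). Slfn4 gave -2.73 (-5.68 to 0.23, adjusted p = 0.203), a value that was -1.52 without aged KO replicate 2, -1.11 without the 2 arrays of raised Gapdh ratio (adjusted p = 0.633) and -0.0055 with the split term and without those arrays. The interaction of Clec4d was -1.49 (-3.28 to 0.30, adjusted p = 0.252) and that of S100a8 -0.29 (-2.02 to 1.43, adjusted p = 0.849). All 9 values were below 0 in each of 3 scalings, while the term for the control split turned 3 of them, S100a8, Il1b and Cxcr2, above 0. Of all calls 56.5% were higher, against 44.9% after median centring and 75.8% without normalization, where the median of all genes was 0.30.

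Other genes of neutrophils were counted from lists, which were chosen with earlier results of these data known. Their counts for aged against adult WT cross the control split, and with the term for it 0 genes of any list below passed in that comparison, in the fit that called 1 gene in all. The 22 measured neutrophil receptor and adhesion genes had a median log2 difference of 1.31 between aged and adult WT, against -0.01 over all genes. Of the 22, 11 were higher and none lower, where 10.7% of all genes were called higher and 12.1% lower. They included Trem1, which amplifies myeloid activation (2.66, adjusted p = 0.0102, limma), the formyl peptide receptor Fpr2 (2.17, adjusted p = 0.0102), the endotoxin receptor Tlr4 (1.87, adjusted p = 0.00973) and Cd300lf (1.69, adjusted p = 0.00660). In aged KO against adult WT, without controls, 15 of the 22 were higher, where 8.59% of all genes were. There Fpr2 was at 2.57 (adjusted p = 0.00579, limma) and the inhibitory antibody receptor Fcgr2b at 1.78 (adjusted p = 0.00685). Between aged and adult KO 0 of 22 passed, where 1.41% of all genes were called higher and 1.57% lower. The median was 0.98, against 0.03 over all genes, and Fpr2 stood at 1.84 (adjusted p = 0.0927, limma).

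Of 17 granule protein genes, 6 were higher and 1 was lower in aged than adult WT, where 10.7% of all genes were called higher and 12.1% lower. Many were dim: the group median lay below the array median for 15 of the 17 in adult WT and 12 in aged WT. In adult KO it did for 14 and in aged KO for 11. Chil3, a chitinase-like protein of myeloid cells, was higher by 3.41 (adjusted p = 0.00151, limma), haptoglobin, Hp, by 2.24 (adjusted p = 0.0102) and the collagenase Mmp8 by 1.61 (adjusted p = 0.0164), while Camp, the cathelicidin precursor, was at -1.92 (adjusted p = 0.00843). Against adult WT, aged KO had 6 of 17 higher, where 8.59% of all genes were. Among them were the protease inhibitor Slpi (3.14, adjusted p = 0.00256, limma), Chil3 (3.52, adjusted p = 0.00276) and the gelatinase Mmp9 (1.83, adjusted p = 0.0115). Between aged and adult KO 1 of 17 passed, where 1.41% of all genes were called higher. It was Pglyrp1, a peptidoglycan recognition protein (2.16, adjusted p = 0.0405, limma). With the term for the control split Pglyrp1 did not pass (2.14, adjusted p = 0.118, limma). In the interaction 2 of 17 were called higher, Camp (3.48, adjusted p = 0.00332, limma) and Pglyrp1 (2.45, adjusted p = 0.0385), against 8.16% of all genes. In aged KO against aged WT 1 of 17 was higher, Camp (2.30, adjusted p = 0.00433, limma), against 10.1% of all genes. Neither count stood far from the share of all genes. With the split term none of these 3 calls held: the interaction was 2.99 for Camp (adjusted p = 0.422) and 2.38 for Pglyrp1 (adjusted p = 0.523), and Camp between the aged groups was at 1.99 (adjusted p = 0.237). NADPH oxidase genes supply the oxidative burst, and 5 were measured. None was called in 3 comparisons: aged against adult WT, aged against adult KO, and aged KO against adult WT. Rac2 came nearest, at 0.78 in aged KO against adult WT (adjusted p = 0.0579, limma). At an unadjusted p under 0.05 limma gave 4515, 2331 and 3736 of all genes in the 3. In aged KO against aged WT, across the control split, 1 of the 5 was called higher, where 10.1% of all genes were. With the split term 0 were.

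Of 18 measured genes listed for the recruitment of neutrophils into tissue, 9 were higher in aged than adult WT, where 10.7% of all genes were. Among them were the chemokines Cxcl1 (2.57, adjusted p = 0.0152, limma) and Ppbp (1.70, adjusted p = 0.00678) and P-selectin, Selp (1.37, adjusted p = 0.00777). Socs3, on the list but itself a feedback inhibitor of cytokine signalling and not a recruiting signal, was another (2.74, adjusted p = 0.00113). In aged KO against adult WT 6 of 18 were higher, where 8.59% of all genes were. There Il6 was at 3.32 (adjusted p = 0.0243, limma), Cxcl1 at 2.66 (adjusted p = 0.0239) and Ppbp at 1.97 (adjusted p = 0.00573). Socs3 was the 1 gene of the 18 with a called interaction (-2.71, adjusted p = 0.0166, limma), where 6.27% of all genes were called lower. In adult KO against adult WT 2 of 18 were higher, where 3.28% of all genes were. These were Socs3 (1.89, adjusted p = 0.0227, limma) and the adhesion molecule Vcam1 (0.79, adjusted p = 0.0466). With the term for the control split none of these 3 calls held: the Socs3 interaction was -2.06 (adjusted p = 0.548, limma), and between the adult groups Socs3 was at 1.65 (adjusted p = 0.220) and Vcam1 at 1.07 (adjusted p = 0.0773).

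Relatives of single members were listed too. Over all genes 10.7% were called higher in aged than adult WT and 8.59% in aged KO than adult WT. The share lower in aged KO than in aged WT was 7.63%. Of 15 interleukin 1 system genes 4 were higher in aged than adult WT, Il18 (1.404, adjusted p = 0.00143, limma), Il33 (2.00, adjusted p = 0.00927), the receptor accessory chain Il1rap (1.14, adjusted p = 0.00628) and Casp1, which cleaves the Il1b precursor (0.96, adjusted p = 0.0362). Of 6 other myeloid C-type lectin receptors 3 were higher, Clec4e (1.90, adjusted p = 0.0310), Clec7a (1.58, adjusted p = 0.0257) and Clec4a2 (1.22, adjusted p = 0.0213), and 4 of 6 were higher in aged KO than adult WT, with Clec4e at 2.34 (adjusted p = 0.0219). Of the 4 other schlafen genes measured 0 were called between the ages in WT, the nearest being Slfn8 at 1.19 (adjusted p = 0.103); Slfn2 was lower in aged KO than in aged WT (-1.51, adjusted p = 0.00565), a call that crosses the control split.

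**Figure D5:**
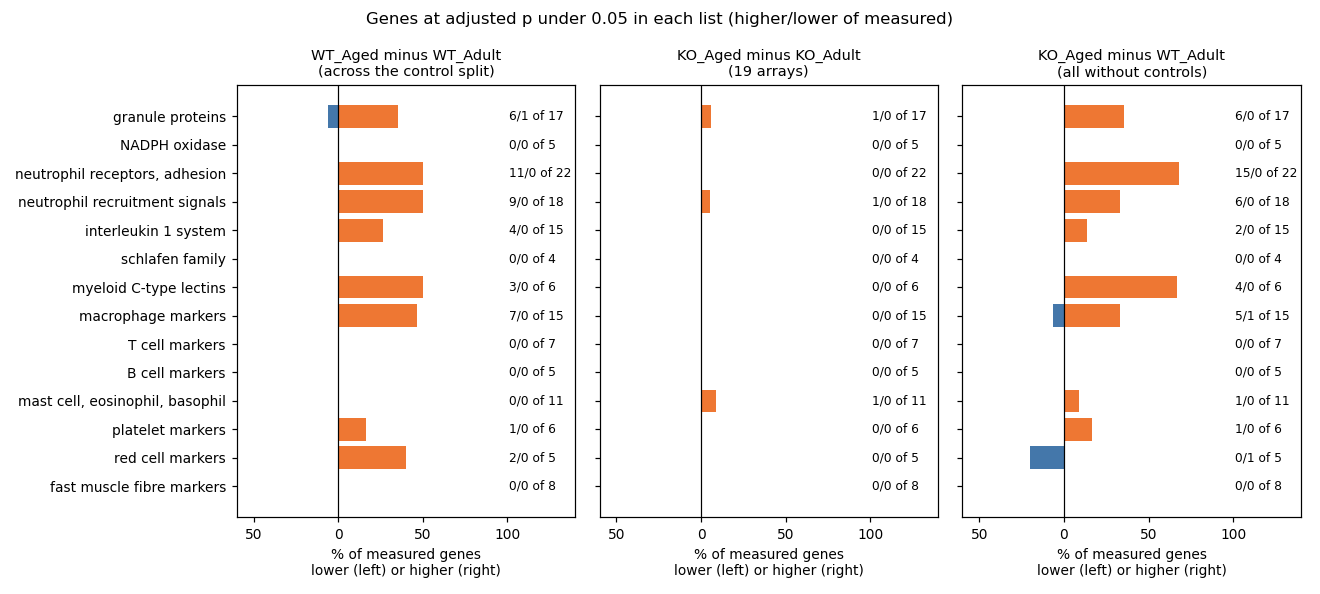
Share of the measured genes of each list that were higher (right) or lower (left) at an adjusted p under 0.05 in 3 comparisons, with the counts printed as higher/lower of measured. Receptor, recruitment and C-type lectin lists each have 50% of their genes higher in aged WT, and the receptor and C-type lectin lists have the longest bars for aged KO against adult WT, 15 of 22 and 4 of 6. Over all genes, 10.7%, 1.41% and 8.59% were called higher in the 3 comparisons from left to right, and 12.1%, 1.57% and 8.27% lower.

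Genes of other cell types moved as well, and their part in the results above was not tested. Over all genes, 10.7% were called higher in aged than adult WT and 22.8% in either direction. In aged KO against adult WT 8.59% were higher and 8.27% lower. The share was 7.63% lower in aged KO than aged WT and 1.41% higher in aged than adult KO. Of 15 macrophage markers 7 were higher and none lower in aged than adult WT, led by the scavenger receptor Msr1 (2.90, adjusted p = 0.000771, limma) and the monocyte chemokine receptor Ccr2 (1.72, adjusted p = 0.00196). In aged KO against adult WT 5 were higher and 1 was lower. The summed intensity of the 15 ranged over 4382 to 6664 in adult WT, 5266 to 11377 in aged WT, 4999 to 8287 in adult KO and 7144 to 12348 in aged KO. Red cell markers went another way: their sum over 5 genes was 851 to 7280 in adult WT and 3553 to 8243 in aged WT, but 228 to 893 in adult KO and 264 to 1209 in aged KO, with 2 of 5 higher in aged than adult WT and 3 of 5 lower in aged KO than aged WT. All 4 aged KO arrays had red cell sums below those of every aged WT array, a comparison that crosses the control split. T cell markers gave 0 calls of 7 between the ages in WT, B cell markers 0 of 5 and fast fibre genes 0 of 8. Platelet markers gave 1 of 6 (Pf4, 0.78, adjusted p = 0.0305) and mast cell, eosinophil and basophil markers 0 of 11 in that comparison; between aged and adult KO the high-affinity IgE receptor chain Fcer1a was higher (3.13, adjusted p = 0.0122), and it was at 2.83 with the term for the control split (adjusted p = 0.0680, limma).

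The genes most like S100a8 were found by the lower of its 2 Pearson correlations on log2 values, over the 11 arrays without and the 8 with controls, among the upper 60% of genes by mean. After S100a9, the 8 non-members with the highest value were the endotoxin co-receptor Cd14 (0.923), Mmp9 (0.916), Ppbp (0.909), Cd300lf (0.903), Chil3 (0.894), the oncostatin M receptor Osmr (0.891), Ebna1bp2 (0.883) and Fpr2 (0.882). The 8 were picked for following S100a8 over these same arrays, so an age difference in them is partly built in. Of the 8, Ppbp, like S100a8, passed between the ages in WT (adjusted p = 0.00678, limma) and in KO (1.62, adjusted p = 0.0470). With the term for the control split neither call of Ppbp held (1.91, adjusted p = 0.401, and 1.49, adjusted p = 0.152), nor did those of S100a8. Osmr, higher by 1.34 in aged WT (adjusted p = 0.000327), stood at 0.00048 between aged and adult KO (adjusted p = 0.9996) and had a called interaction (-1.34, adjusted p = 0.00566). With the split term 0 of the 12393 genes, or 0%, had a called interaction in limma's test, and 1411 had an unadjusted p under 0.05. Among the members the same measure gave 0.882 for Csf3r, 0.865 for Il1b, 0.850 for Clec4d, 0.797 for Il1r2, 0.653 for Lcn2, 0.483 for Slfn4 and 0.219 for Cxcr2. The arrays share groups, so these values describe how the genes varied over this set of arrays.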

How the data were processed

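RNA of 19 tibialis anterior muscles was labelled and hybridised to Affymetrix arrays, 1 array a sample. The deposited values are intensities on a linear scale made by the authors with MAS5, per the submitters' processing notes; no version was named there. Their 2% trimmed mean was about 500.3 on every array, and array medians ran from 86.5 to 136. The number of arrays limits the precision.

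Of 22690 probe sets, 64 controls were set aside, 20380 had 1 gene symbol in the platform annotation, 691 several and 1555 none; the last kinds stayed unnamed. The scale was log2(value + 4.76), where the added constant is percentile 10 of the table, so folds understate changes of dim genes. Array medians spanned 0.63 on the log2 scale, over the limit of 0.5, so quantile normalization was applied. A gene was read through its probe set of highest mean, and all 12393 genes were tested, with 1 mean per group over all 19 arrays (limma 3.58.1, R 4.3.3, lmFit and eBayes; Benjamini-Hochberg). The fit was tested on simulated data. Arrays were called with controls at a dap control signal over 500, and their Gapdh ratio raised over 3. Comparisons within a control state used a mean for each group and control state.

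Genes were named by rule: the 10 listed genes; Des; up to 4 genes of each list with the smallest p in the comparison described; and the 8 genes most like S100a8. Members and lists were chosen with earlier results of these data known. Alternatives were median centring, no normalization, pseudocounts of 1 and 16, the upper 60% of genes, the mean of probe sets, a mean-variance trend, array weights, only the groups compared, the control split as a term or alone, and leaving out arrays; those on the comparisons within a control state were chosen after seeing the data. Promoter windows are RefSeq's (GRCm38.p6). Tables and plots used Python 3.11.15, pandas 2.3.3, numpy 2.4.6, scipy 1.17.1 and matplotlib 3.10.9.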

Additional observations from a re-analysis of the deposited data

Results flagged for a closer look

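Cxcr2 in adult WT had 1 array apart from the others: replicate 1, which read 19.5 MAS5 units. On normalized log2 values its gap to the next array took 0.713 of the group's range, just past the limit for 5 arrays. The test was made in 36 groups of 4 or 5 arrays, and chance sets 1 array apart in about 1 of 20 such groups.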

How the results depend on the processing

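Counts of called genes depended on the setting. In aged against adult WT 2830 genes were called, 4519 with array weights, 1 with the split term and 0 with that term and without the 2 arrays of raised Gapdh ratio; the 9 members called became 0 in both of the latter. In aged against adult KO 369 became 569, 215 and 129 in the same order, 599 without normalization, 0 on arrays without controls alone, 16 with only the groups compared, 556 in the upper 60% of genes and 98 without the 2 arrays. The 2 members called there became 0 with array weights, the term (with or without the 2 arrays), arrays without controls alone, only the groups compared or the 2 arrays left out, and 1 with the mean of probe sets, median centring or a pseudocount of 1. In aged KO against aged WT 2197 became 152 with the term, 124 with both and 966 without the 2 arrays, and the 1 member called became 0 in all 3. In adult KO against adult WT 965 became 2649 with array weights, 203, 246, 46 on arrays without controls and 329 with only the groups compared. The interaction's 1788 became 3403, 0, 0 and, without the 2 arrays, 1054. Aged KO against adult WT, 2090, became 1318 without them.

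With 1 array left out, genes called ranged over 1947 to 2879 (aged against adult WT), 120 to 474 (aged against adult KO), 1543 to 2305 (aged KO against aged WT), 515 to 1275 (adult KO against adult WT), 1231 to 2371 (interaction), 1525 to 2075 (aged KO against adult WT) and 125 to 380 (aged WT against adult KO with controls, 464 with all arrays). Members called ranged over 4 to 8, 0 to 2, 0 to 1, 0 to 0, 0 to 1, 3 to 8 and 1 to 1 in that order.

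Signs turned only for values that were not called; the cause was not tested. With the split term, and then also without the 2 arrays, aged KO against aged WT gave 0.057 and 0.19 for Clec4d and 0.92 and 1.56 for Cxcr2, which was 0.32 without the 2 arrays alone, and Slfn4 gave 0.61 with both. The interaction gave 0.72 and 1.36 for Cxcr2 and 0.48 and 1.05 for Il1b, which was 0.34 without the 2 arrays alone; Il1r2 gave 0.70 with both and 0.27 without the 2 arrays, and S100a8 0.060 with the term. Lcn2 in adult KO against adult WT was 0.0093 with the term, with both and on arrays without controls. With 1 array left out, aged KO against aged WT ranged from -0.85 to 0.072 for Clec4d, -0.75 to 0.54 for Cxcr2, -0.39 to 1.08 for Il1b and -0.30 to 0.84 for Il1r2. The interaction ranged from -1.06 to 0.0076 for Csf3r, -1.01 to 0.47 for Il1b, -0.95 to 0.19 for Il1r2 and -0.71 to 0.032 for S100a8. Lcn2 in adult KO against adult WT ranged from -0.53 to 0.039 and Slfn4 in aged against adult KO from -0.15 to 1.74. Of the other single-gene values under planned and added settings, 535 kept direction and side of the threshold, 45 lost a call and 1 gained one; with 1 array left out 589 kept both, 53 lost a call and 3 gained one. No paired analysis was possible because the groups compared share fewer than 2 numbers: the titles end in number codes that the labels do not explain, and 1 of 14 code starts occurs in more than 1 group. It is that of aged WT replicates 4 and 5 and aged KO replicate 4, which lie on opposite sides of the control split. Arrays were numbered in accession order.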
